A study of Homo sapiens with 36 samples.

Results

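The DUSP6 locus was taken as a window of 470 kb on chromosome 12 (chr12:89480000-89950000, hg19). Its members were the H3K27ac regions and JUNB sites that overlap the window, chosen by position among the regions in which the authors had called peaks. They numbered 157 of 434639 in all, made up of 110 H3K27ac regions from 6 tables and 47 JUNB sites. The 6 tables were made separately and describe much of the same chromatin, with 18 regions in the table of POS cells given trametinib for 24 hours, 22 in that of NEG cells given it for 24 hours, 15 in that of POS cells at day 14, 13 in that of NEG cells at day 14, 23 in that of POS against NEG, and 19 in that of POSR against POS.

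DUSP6 encodes MKP3, a cytoplasmic phosphatase that removes the activating phosphates from the kinases ERK1 and ERK2. The gene is itself transcribed in response to ERK signalling, so that it forms a negative feedback loop on the MAPK pathway and is widely used as a readout of MEK and ERK activity. H3K27ac, acetylation of lysine 27 of histone H3, marks active promoters and enhancers. JUNB is one of the proteins that pair to form the transcription factor AP-1, which also acts downstream of MAPK signalling.

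The cells were SUM-229PE, a triple-negative breast cancer line at passages 15 to 18 for nearly all samples, sorted into EpCAM+ CD49f+ cells (POS) and EpCAM- CD49f- cells (NEG). Trametinib inhibits the kinase MEK, directly upstream of ERK. The H3K27ac groups were POS and NEG cells in 30 nM trametinib for 24 hours (3 and 2 libraries) against DMSO (3 and 2), POS and NEG cells at day 14 of 10 nM trametinib (2 and 2) against day 0 (2 and 2), and the POSR1 and POSR2 cells (2 and 2), which the labels place in a POSR subpopulation without saying how it was derived. The authors' names for the day 14 comparisons give day 0 as a DMSO control. JUNB was profiled in DMSO only, in 2 POS and 2 NEG libraries. The sort was not checked here against the genes of its markers, because the regions carry no gene names.

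No hg19 annotation or genome was used here, so no region is assigned to the promoter or an enhancer of DUSP6 and none is shown as sequence. In RefSeq's GRCh38.p14 gene order, the nearest protein-coding genes toward higher coordinates are POC1B and GALNT4 with their readthrough transcripts, so the window is not that of DUSP6 alone. The DUSP6 promoter is shown as background, and whether this stretch receives the gene's response to ERK was not tested. It is the 250 bases before the start of DUSP6 in RefSeq, chr12:89352502-89352751 of GRCh38.p14 on the minus strand, and it was not placed on the hg19 regions.
DUSP6 promoter: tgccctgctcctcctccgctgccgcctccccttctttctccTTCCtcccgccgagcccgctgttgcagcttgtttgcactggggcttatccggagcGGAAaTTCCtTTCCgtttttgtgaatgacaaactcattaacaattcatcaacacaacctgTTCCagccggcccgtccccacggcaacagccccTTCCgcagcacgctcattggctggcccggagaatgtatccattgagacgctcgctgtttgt
Capitals mark GGAA on either strand, the core of sites for ETS transcription factors, several of which ERK phosphorylates. The promoter held 6 matches, against a median of 3 over 35116 promoter sequences of the same length, and 9.14% of those held 6 or more. The longer ETS motif CCGGAA, which contains GGAA, had 0 matches there and at least 1 in 14.5% of promoters. The AP-1 motif TGANTCA had 0 matches, with 6.57% of promoters holding it, and the related TGACGTCA had 0, with 1.65%.

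Levels below are CPM, counts per 1000000 counts of the library, with library sizes adjusted by TMM (trimmed mean of M-values), and a region is called higher or lower where edgeR's quasi-likelihood test gave a Benjamini-Hochberg adjusted p under 0.05 over its whole table. The locus was proposed with results of these data known, so the calls describe single regions and are no independent evidence about the locus. All 157 members passed the filter on low counts. Joined by position over the tables, the H3K27ac regions formed 38 elements, numbered here from low to high coordinate, of which 6 had a region in all 6 tables. A region joined an element where at least 50% of its width overlapped the first region of that element. Neighbouring elements can therefore overlap in part, as 14 and 15, 27 and 28, and 29 and 30 do, so the elements are not all separate sites. Libraries held 1861227 to 9212006 counts for H3K27ac, of which 533 to 5930 lay in the window, and 4884516 to 8947351 for JUNB, of which 2186 to 3978 did. Each library is a bulk sample, in which fewer marked cells and less signal per cell cannot be told apart.

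In POS cells, H3K27ac fell at all 18 regions of the window after 24 hours of trametinib, where 26.0% of the table's regions were called lower and 26.7% higher. Summed, the regions held 121, 144 and 114 CPM in the trametinib libraries, against 744, 591 and 645 CPM in the DMSO libraries. The groups did not overlap, and the trametinib mean of 126 ± 15.7 CPM was 19.1% of the DMSO mean of 660.0 ± 77.4 CPM (SD, n = 3 each). Over the 18 regions the median log2 fold change was -2.27, beside 0.02 over the 50345 regions tested, and 17 of the 18 fell 2-fold or more, as 10.9% of the table did. A region named after a peak of a DMSO library was more often called lower across the table (49.0%) than one named after a peak of a trametinib library (4.79%), and 16 of the 18 were of the DMSO kind.

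**Figure D1:**
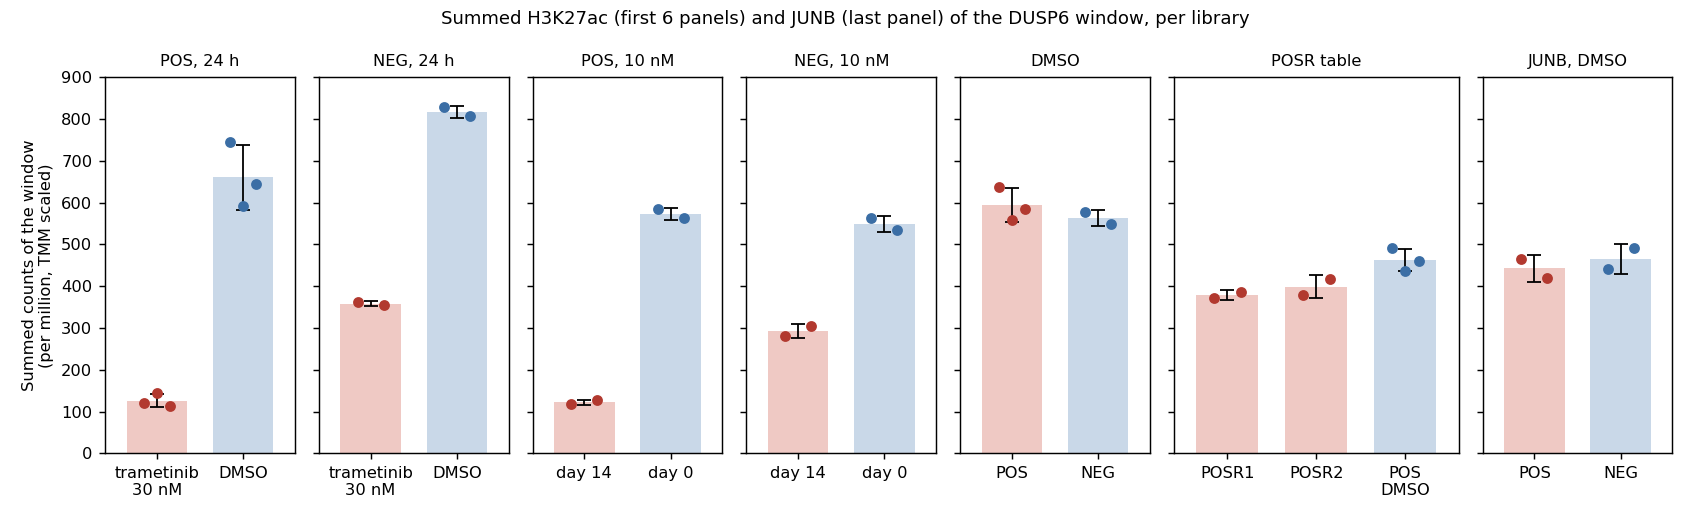
Summed H3K27ac or JUNB level in CPM of all regions of the window (y axis), per library (points), with the group mean (bar) and SD (error bar), for H3K27ac in 6 panels and JUNB in the last. Trametinib POS libraries lay between 114 and 144 CPM, below every DMSO POS library, whereas POS and NEG in DMSO lay close together for both H3K27ac and JUNB. Heights are not comparable between panels, since each table has its own regions. The panel of POS against NEG in DMSO includes no region of element 21.

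The strongest POS acetylation lay in 3 neighbouring elements, which together held 43.8 to 51.0% of the window's summed signal in the DMSO libraries. Element 23 (chr12:89763975-89764976) had 14.0, 16.1 and 15.0 CPM in trametinib, against 134, 98.7 and 115 CPM in DMSO, a log2 fold change of -2.95 ± 0.18 (SE; adjusted p = 9.3e-27, edgeR). Element 24 (chr12:89767480-89768481) had 9.66, 12.5 and 12.6 CPM in trametinib, against 125, 83.3 and 93.8 CPM in DMSO (log2 fold change -3.12 ± 0.18, adjusted p = 9.3e-28, edgeR). In both elements the DMSO libraries varied more among themselves than the trametinib libraries did, and the groups lay far apart.
Element 21 (chr12:89747195-89748196) had 16.8, 19.3 and 20.6 CPM in trametinib, against 121, 77.0 and 93.2 CPM in DMSO (log2 fold change -2.36 ± 0.17, adjusted p = 1.0e-21, edgeR). Elements 21 and 24 were the 2 regions named after a trametinib peak, so their fall went against the lean of such regions.

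The lowest log2 fold change of the window was that of element 32 (chr12:89844130-89845131), 80.2 kb above element 23. It had 4.83, 5.64 and 2.78 CPM in trametinib, against 40.8, 34.3 and 41.0 CPM in DMSO (log2 fold change -3.19 ± 0.17, adjusted p = 2.5e-30, edgeR), and 0.193% of the regions tested had a lower value. At the low-coordinate end, element 3 (chr12:89555830-89556831) had 4.43, 4.79 and 3.12 CPM in trametinib, against 32.7, 28.4 and 33.5 CPM in DMSO (log2 fold change -2.98 ± 0.16). Of the others, elements 1, 5, 11 and 14 had log2 fold changes of -2.70, -2.61, -2.73 and -2.74, and the rest lay between -2.19 and -1.25. The loss spanned the measured length of the window, and the mildest was element 19 (chr12:89701220-89702221) with 5.90, 7.86 and 5.46 CPM in trametinib, against 11.4, 10.8 and 9.97 CPM in DMSO (log2 fold change -0.77 ± 0.19, adjusted p = 3.2e-04, edgeR).

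At day 14 of 10 nM trametinib, 14 of 15 POS regions had fallen and none was higher, in a table where 38.2% of regions were called lower and 39.5% higher. The window's sum was 119 and 127 CPM at day 14, against 583 and 563 CPM at day 0, and the mean of 123 ± 5.88 CPM was 21.4% of the day 0 mean of 573 ± 14.2 CPM (SD, n = 2 each). The median log2 fold change was -2.33 over the 15 regions and 0.02 over all 44304 tested. Of the regions named after a day 0 peak, 63.8% were called lower across the table, and 14 of the 15 were of that kind.

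The deepest losses at day 14 were in elements 32 and 23. Element 32 (chr12:89844196-89845197) had 1.66 and 2.35 CPM at day 14, against 40.2 and 42.2 CPM at day 0 (log2 fold change -4.34 ± 0.23, adjusted p = 2.7e-40, edgeR). Element 23 (chr12:89763991-89764992) had 5.72 and 7.06 CPM at day 14, against 123 and 115 CPM at day 0 (log2 fold change -4.22 ± 0.18, adjusted p = 2.9e-52, edgeR). These left 4.87% and 5.37% of the day 0 means, and 0.158% and 0.219% of the regions tested had a lower log2 fold change. Element 22 (chr12:89747873-89748874), which overlaps element 21 in part, had 18.3 and 19.0 CPM at day 14, against 158 and 122 CPM at day 0 (log2 fold change -2.92 ± 0.15).

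Other elements kept more of their signal at day 14. Element 13 (chr12:89619079-89620080) had 27.3 and 26.9 CPM at day 14, against 48.7 and 45.5 CPM at day 0 (log2 fold change -0.80 ± 0.14, adjusted p = 1.7e-07, edgeR), where its 24-hour log2 fold change was -2.19. Element 1 (chr12:89510591-89511592) had a log2 fold change of -1.02 at day 14 and -2.70 at 24 hours, and element 26 (chr12:89777658-89778659) of -1.11 and -1.71. The doses and libraries of the 2 times differ, and the difference between them was not tested. The region not called was element 4 (chr12:89573084-89574085), with 6.83 and 9.60 CPM at day 14 and 8.92 and 12.9 CPM at day 0, which overlap; it was also the only one of the 15 named after a day 14 peak.

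**Figure D2:**
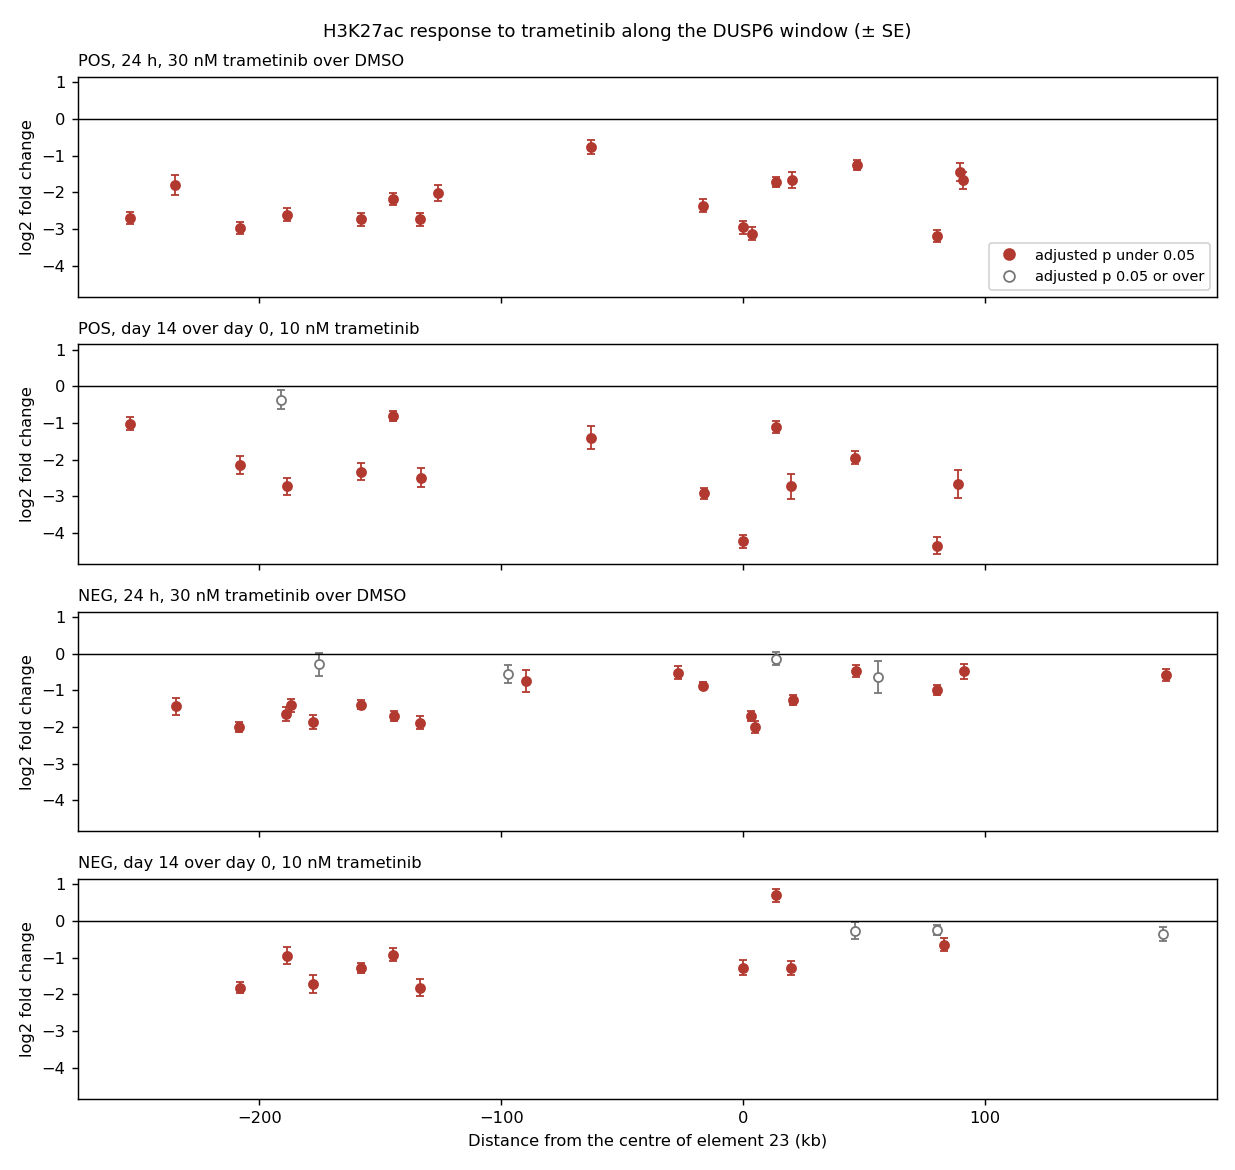
Log2 fold change of H3K27ac ± SE (y axis) of each region against the distance of its centre from that of element 23 in kb (x axis), for POS at 24 hours and day 14 and NEG at 24 hours and day 14. All 18 POS regions lie below 0 at 24 hours, the 2 deepest day 14 values are elements 23 and 32, and the single filled point above 0 is element 26 in NEG at day 14.

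NEG cells lost H3K27ac over the same window after 24 hours, with 18 of 22 regions called lower and 0 higher. In all, 19.3% of regions tested were called lower and 17.2% higher. The window's sum was 362 and 355 CPM in trametinib, against 828 and 807 CPM in DMSO, and the mean of 358 ± 5.45 CPM was 43.9% of the DMSO mean of 817 ± 14.6 CPM (SD, n = 2 each). The median log2 fold change was -1.13 over the 22 regions and 0.04 over all 54409 tested, and 11 of the 22 fell 2-fold or more, beside 6.23% of the table. Of regions named after a DMSO peak, 40.0% were called lower across the table, and 15 of the window's 18 such regions were.

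The largest NEG falls were at elements 3 and 25. Element 3 (chr12:89555767-89556768) had 20.8 and 17.1 CPM in trametinib, against 79.7 and 71.5 CPM in DMSO (log2 fold change -1.99 ± 0.13, adjusted p = 4.4e-50, edgeR). Element 25 (chr12:89768700-89769701) had 10.7 and 9.06 CPM in trametinib, against 39.3 and 39.4 CPM in DMSO (log2 fold change -1.99 ± 0.16, adjusted p = 1.1e-32, edgeR). Element 21 (chr12:89747168-89748169) was the strongest NEG region of the window, above 99.4% of the regions of its table, and fell less, with 97.6 and 90.6 CPM in trametinib, against 169 and 177 CPM in DMSO (log2 fold change -0.88 ± 0.10, adjusted p = 8.5e-19, edgeR).
Element 7 (chr12:89586182-89587183), which was low in POS cells, had 6.26 and 7.21 CPM in trametinib, against 27.4 and 21.9 CPM in DMSO (log2 fold change -1.87 ± 0.19, adjusted p = 4.9e-21, edgeR). Element 26 (chr12:89777592-89778593) had 17.4 and 15.0 CPM in trametinib, against 16.7 and 18.9 CPM in DMSO (log2 fold change -0.13 ± 0.17, adjusted p = 0.58, edgeR). The values of element 26 overlapped, and elements 9, 17 and 31 were the other regions not called. Their mean levels were low, at 5.21, 6.83 and 2.75 CPM in trametinib and 6.37, 10.0 and 4.28 CPM in DMSO.

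At day 14, NEG cells had 9 of 13 regions called lower and 1 higher, in a table with 23.8% called lower and 24.8% higher. The window's sum was 281 and 304 CPM at day 14, against 562 and 535 CPM at day 0, and the mean of 292 ± 16.4 CPM was 53.3% of the day 0 mean of 548 ± 19.3 CPM (SD, n = 2 each). The median log2 fold change was -0.94, beside 0.00 over the 28179 regions tested. Element 3 (chr12:89555820-89556821) had 27.4 and 26.0 CPM at day 14, against 93.4 and 94.7 CPM at day 0 (log2 fold change -1.82 ± 0.14, adjusted p = 3.5e-18, edgeR). Element 14 (chr12:89630257-89631258) had the same log2 fold change of -1.82, with 9.48 and 10.6 CPM at day 14, against 38.3 and 32.0 CPM at day 0.

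Element 26 (chr12:89777658-89778659) was the region that rose. It had 37.9 and 39.9 CPM in NEG cells at day 14, against 26.4 and 20.8 CPM at day 0 (log2 fold change 0.70 ± 0.17, adjusted p = 4.4e-04, edgeR), and the groups did not overlap. DESeq2 gave a log2 fold change of 0.71 for it without a call. Element 32 (chr12:89844196-89845197), the deepest POS loss, had 40.5 and 44.7 CPM in NEG cells at day 14, against 51.4 and 50.1 CPM at day 0, and was not called (log2 fold change -0.25 ± 0.14, adjusted p = 0.148, edgeR). Elements 29 and 37 were not called either, with log2 fold changes of -0.27 and -0.34.

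**Figure D3:**
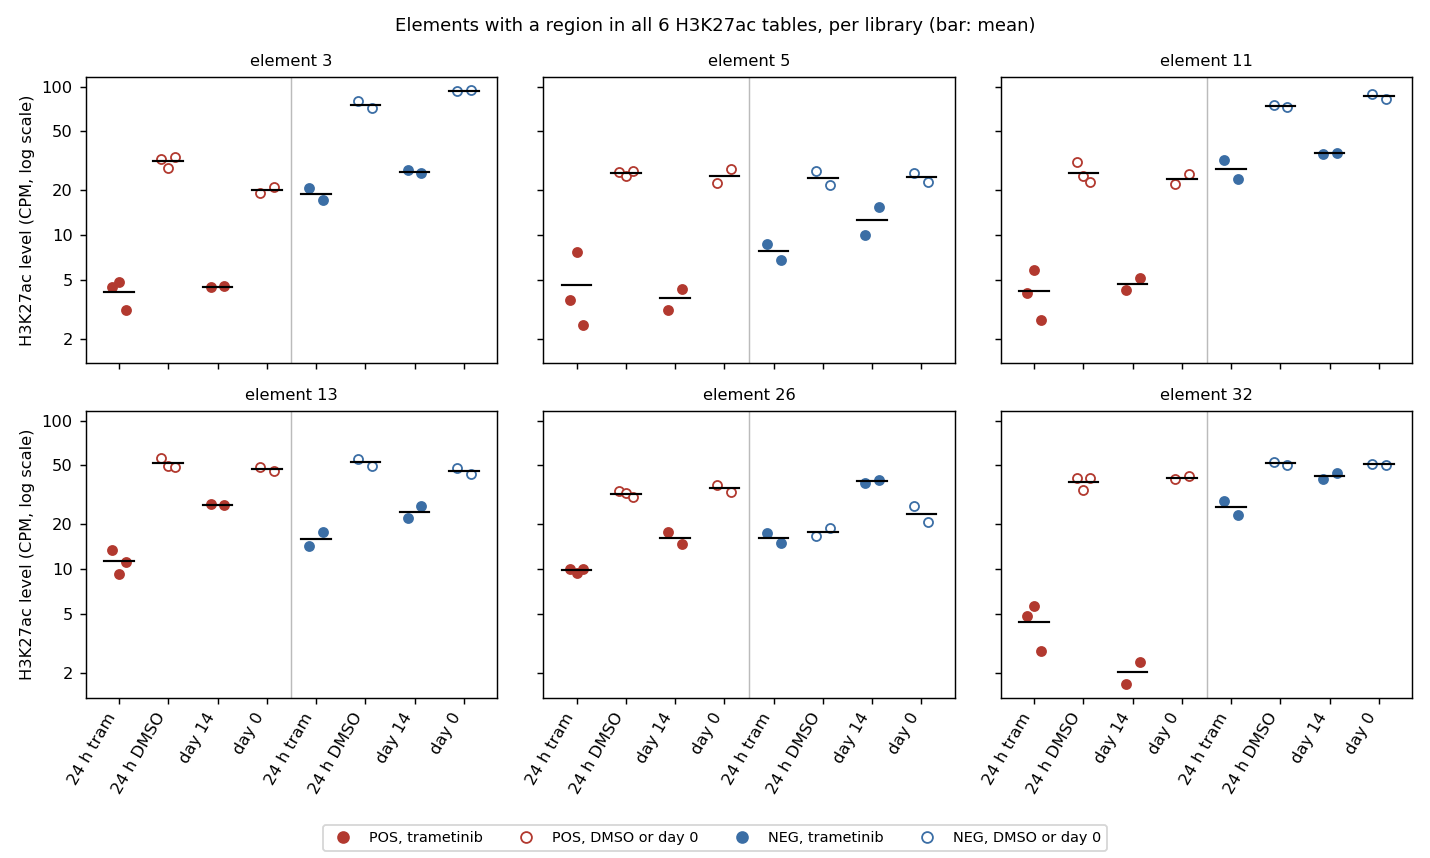
H3K27ac level in CPM on a log scale (y axis) of each library (points) and group mean (bar) for the 6 elements found in all tables, with POS groups left of the grey line and NEG groups right of it. Element 32 drops to 1.66 and 2.35 CPM in POS cells at day 14 while its NEG day 14 libraries hold 40.5 and 44.7 CPM, and element 26 is higher at day 14 than at day 0 in NEG cells.

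The response of NEG cells minus that of POS cells was tested as an interaction over regions matched by 50% reciprocal overlap. At 24 hours, 12 elements of the window could be matched. Element 23 was not among them, since it had no NEG region at 24 hours, so its 24-hour difference was not tested. The difference was called above 0, meaning a smaller loss in NEG cells, for 10 of them and called below 0 for 0. Over the 18186 matched regions, 14.1% were called above 0 and 11.5% below. The median difference was 1.02 in the window and 0.03 over all matched regions. Matched regions need not span the same bases. With 80% reciprocal overlap required, 7 elements of the window were matched, and 7 were called above 0 and 0 below. Of all 14190 regions matched that way, 2047 were called above 0 and 1640 below. It was largest for element 32 (2.14 ± 0.22, adjusted p = 2.2e-12, edgeR), where NEG cells had a log2 fold change of -0.99 and POS cells of -3.19. Element 26 differed by 1.51 ± 0.21 (adjusted p = 3.9e-08) and element 21 by 1.42 ± 0.19 (adjusted p = 1.0e-08). Elements 2 and 13 were not called, with differences of 0.30 ± 0.39 (adjusted p = 0.632) and 0.41 ± 0.21 (adjusted p = 0.134).

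At day 14, 9 elements were matched, of which 6 were called above 0 and 1 below, where 31.9% and 30.7% of the 15794 matched regions were. Element 32 had the largest difference of the 9 (3.58 ± 0.30, adjusted p = 5.1e-30, edgeR), and 99.7% of matched regions had a lower value. Element 23 differed by 2.44 ± 0.31 (adjusted p = 1.9e-14), with log2 fold changes of -1.27 in NEG cells and -4.22 in POS cells. Element 5 differed by 1.26 ± 0.36 (adjusted p = 0.00107), but by 0.91 without a call when NEG day 14 replicate 2 was left out.
The scaling of the matched regions set these values 0.52 below the plain differences of the 2 tables' own fits, over the 9 elements, and library totals in place of TMM moved the median of all matched regions to 0.34 from 0.02. With totals, 7 of the 9 were called above 0 and 0 below. Element 13, the one below 0 (-0.63 ± 0.22, adjusted p = 0.00899, edgeR), was -0.31 and not called with totals, and not called by DESeq2 (-0.65) or without NEG day 14 replicate 1 (-0.51). In the 2 tables' own fits its log2 fold changes were -0.92 in NEG cells and -0.80 in POS cells.

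In DMSO the summed H3K27ac of the 23 regions compared was alike in size in the 2 subpopulations. It was 638, 559 and 584 CPM in POS libraries and 577 and 549 CPM in NEG libraries. The mean of 594 ± 40.4 CPM in POS cells (SD, n = 3) was 106% of the 563 ± 19.8 CPM in NEG cells (SD, n = 2), and the values overlapped. The sum left out element 21, which had no region in this comparison. Element 21 was the strongest region of the window in the acute trametinib comparison of NEG cells. The likeness therefore holds for the regions summed, and not for all signal of the window. Single regions differed. Of 23 regions, 7 were called higher in POS cells and 9 were called higher in NEG cells, beside 38.6% and 38.0% of the table's 57023 regions. With 69.6% of regions called either way, the window was near the 76.5% of the table. The 14 regions named after a NEG peak held all 9 of those higher in NEG, so the direction of a call ran with the library in which the region was named.

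Element 23 had 135, 101 and 117 CPM in POS cells, against 24.7 and 27.5 CPM in NEG cells (log2 fold change 2.18 ± 0.22, adjusted p = 4.2e-11, edgeR). Element 1 (chr12:89510567-89511568) had 22.4, 25.0 and 23.7 CPM in POS cells, against 5.87 and 3.90 CPM in NEG cells (log2 fold change 2.27 ± 0.21, adjusted p = 2.4e-12, edgeR). Neither element's values overlapped between the subpopulations. Element 16 (chr12:89637844-89638845) followed, with 11.8, 12.9 and 12.2 CPM in POS cells, against 3.74 and 4.26 CPM in NEG cells (log2 fold change 1.61 ± 0.25), and element 26 with 33.7, 33.6 and 31.3 CPM in POS cells, against 14.9 and 16.7 CPM in NEG cells (log2 fold change 1.06 ± 0.18).

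The regions higher in NEG cells were led by element 7 (chr12:89586182-89587183). It had 1.39, 3.55 and 2.55 CPM in POS cells, against 24.5 and 19.5 CPM in NEG cells (log2 fold change -3.22 ± 0.25, adjusted p = 1.9e-14, edgeR). Element 28 (chr12:89784539-89785540) had 10.0, 10.9 and 8.27 CPM in POS cells, against 40.6 and 45.7 CPM in NEG cells (log2 fold change -2.16 ± 0.17, adjusted p = 4.1e-14, edgeR). Element 28 started 20.6 kb above element 23 and had the opposite bias. Element 38 (chr12:89938582-89939583) had 4.18, 6.89 and 6.04 CPM in POS cells, against 22.6 and 23.8 CPM in NEG cells (log2 fold change -2.06 ± 0.19), and element 11 (chr12:89606096-89607097) 31.0, 24.8 and 22.3 CPM in POS cells, against 67.1 and 64.9 CPM in NEG cells (log2 fold change -1.33 ± 0.18).

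Element 32 was not called between the subpopulations in DMSO, with 44.3, 37.8 and 44.1 CPM in POS cells and 47.3 and 45.0 CPM in NEG cells (log2 fold change -0.13 ± 0.18, adjusted p = 0.511, edgeR), whereas its 24-hour responses differed as given above. With library totals it was -0.29 and called (adjusted p = 0.026, edgeR). The same DMSO libraries stand in the 24-hour comparisons. There, the 7 elements called higher in POS had a median log2 fold change of -2.19 in POS cells, the 3 called higher in NEG of -2.73 and the 6 not called of -2.14. Element 13 was called higher in POS (0.42 ± 0.18, adjusted p = 0.0399), but lost its call under 4 other settings, among them DESeq2 and library totals, and without 3 of the libraries in turn (POS replicate 3, NEG replicate 1 and NEG replicate 2; 0.40 to 0.50). Element 24 (0.82 ± 0.21) was 0.73 and not called without NEG replicate 2. Library totals in place of TMM moved the median of the table to -0.19 from -0.04, and gave 6 regions higher in POS and 10 higher in NEG.

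JUNB bound 47 sites in the window in DMSO. Of these, 26 lay at least 50% inside an H3K27ac region of some table, with a median level of 8.58 CPM, and 21 lay outside, with 2.86 CPM. In the table of POS cells at 24 hours, 15 of 18 H3K27ac regions held a site, and the median log2 fold change with trametinib was -2.61 for those 15 and -1.45 for the 3 without. The 3 without were elements 16, 19 and 35, with mean levels of 7.61, 8.56 and 6.31 CPM. In NEG cells at 24 hours, 17 of 22 held a site, with medians of -1.40 with and -0.63 without. Most regions of the whole tables held a site as well, 38808 with and 11537 without in POS cells at 24 hours, and 33293 and 21116 in NEG cells. Over the whole tables the medians with and without a site were -0.04 and 0.20 in POS cells at 24 hours, and -0.07 and 0.15 in NEG cells at 24 hours. At day 14 the window's medians were -2.33 with (13 regions) and -2.04 without (2) in POS cells, where the whole table had -0.23 and 1.28. In NEG cells at day 14 they were -1.10 with (12) and -0.34 without (1), where the whole table had -0.02 and 0.12. JUNB was not profiled in trametinib, so these values are a description.

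The strongest site (chr12:89769384-89769585) had 65.1 and 58.7 CPM in POS cells, against 49.8 and 51.3 CPM in NEG cells, above 99.2% of all sites. It was not called (log2 fold change 0.29 ± 0.22, adjusted p = 0.264, edgeR), although its values did not overlap and library totals gave a call (0.33), and it lay in element 25. The site of element 23 (chr12:89764728-89764929) had 44.0 and 38.2 CPM in POS cells, against 16.0 and 15.9 CPM in NEG cells (log2 fold change 1.37 ± 0.24, adjusted p = 4.0e-08, edgeR). A site in element 13 (chr12:89619722-89619923) had 51.2 and 40.3 CPM in POS cells, against 9.85 and 9.64 CPM in NEG cells (log2 fold change 2.23 ± 0.25, adjusted p = 3.8e-18, edgeR). That element's H3K27ac differed by 0.42 on the log2 scale.
The site of element 3 (chr12:89556650-89556851) had 14.5 and 9.21 CPM in POS cells, against 38.2 and 41.5 CPM in NEG cells (log2 fold change -1.71 ± 0.24, adjusted p = 1.3e-11, edgeR). Some strong sites were not called, such as chr12:89746311-89746512, outside every H3K27ac region listed, with 27.3 and 26.5 CPM in POS cells and 21.7 and 26.8 CPM in NEG cells (log2 fold change 0.16 ± 0.23, adjusted p = 0.586, edgeR).

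JUNB sites were called higher in POS cells at 7 positions and higher in NEG cells at 17, beside 28.5% and 29.4% of the 141580 sites tested. The largest fitted value in each direction belonged to a site of middling level, ranked 24 and 25 of the 47 by mean CPM. One (chr12:89762890-89763091) had 8.19 and 9.02 CPM in POS cells, against 1.31 and 1.23 CPM in NEG cells (log2 fold change 2.73 ± 0.39, adjusted p = 1.1e-11, edgeR), and another (chr12:89628200-89628401) had 0.819 and 0.767 CPM in POS cells, against 5.82 and 9.64 CPM in NEG cells (log2 fold change -3.21 ± 0.43, adjusted p = 1.2e-12, edgeR). The sum over all sites was 466 and 419 CPM in POS cells and 440 and 490 CPM in NEG cells, which overlap.

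H3K27ac and JUNB differences between POS and NEG were set side by side for the 19 pairs of a region and a site inside it. Both were called in 10 pairs, and in all 10 the directions were alike, as in 96.3% of the 28889 such pairs of the whole tables. Over the 19 pairs the log2 fold changes had a Pearson r of 0.79, given as a description, since 3 regions hold 2 sites each. Element 1 had 2.27 for H3K27ac and 2.33 for its site (chr12:89511239-89511440), and element 28 had -2.16 for H3K27ac and -2.49 and -1.27 for its sites. Element 14, at -0.02 for H3K27ac, held a site higher in POS cells (chr12:89630944-89631145; 0.83, adjusted p = 0.0014, edgeR) and one higher in NEG cells (chr12:89630176-89630377; -1.06, adjusted p = 0.00695, edgeR). Element 11 had -1.33 for H3K27ac and -0.21 ± 0.29 for its site (chr12:89606173-89606374; adjusted p = 0.559, edgeR).

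**Figure D4:**
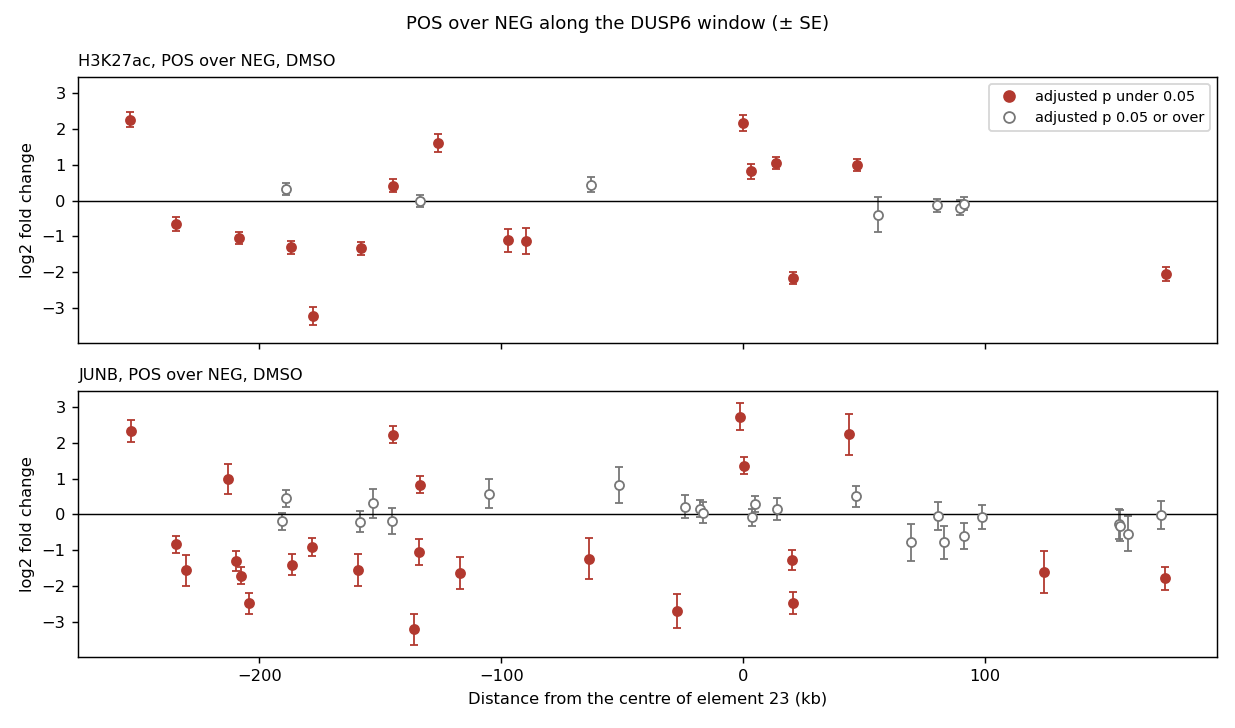
Log2 fold change of POS over NEG in DMSO ± SE (y axis) for H3K27ac regions and JUNB sites, against the distance of their centres from that of element 23 in kb (x axis). Regions higher in POS and higher in NEG lie interspersed in short runs along the window, and element 28, 20.6 kb above element 23, is below 0 for H3K27ac and for both of its JUNB sites.

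In POSR cells against POS cells in DMSO, 6 of 19 regions were called lower and 1 higher, beside 18.5% and 17.5% of the 53240 regions tested. The share called in either direction was near that of the table. POSR1 and POSR2 libraries were fitted as 1 group, so differences between POSR1 and POSR2 count as spread among replicates in these calls. The window's sum was 371 and 387 CPM in POSR1 libraries and 380 and 418 CPM in POSR2 libraries, against 491, 436 and 460 CPM in POS libraries. The POSR values lay below the POS values, and their mean of 389 ± 20.6 CPM (SD, n = 4) was 84.1% of the POS mean of 462 ± 27.3 CPM (SD, n = 3). The median log2 fold change was -0.39, beside 0.01 over the table.

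Element 23 was not called, with 107 and 108 CPM in POSR1 libraries and 90.1 and 103 CPM in POSR2 libraries, against 128, 95.5 and 112 CPM in POS libraries (log2 fold change -0.13 ± 0.15, adjusted p = 0.507, edgeR). Element 3 (chr12:89555830-89556831) was lowest relative to POS, with 16.3 and 14.0 CPM in POSR1 libraries and 15.3 and 14.5 CPM in POSR2 libraries, against 31.5, 27.5 and 32.6 CPM in POS libraries (log2 fold change -1.02 ± 0.14, adjusted p = 6.5e-04, edgeR). Element 10 (chr12:89602246-89603247) was the one that rose, with 12.1 and 16.5 CPM in POSR1 libraries and 18.2 and 19.8 CPM in POSR2 libraries, against 9.04, 9.63 and 8.94 CPM in POS libraries (log2 fold change 0.86 ± 0.20, adjusted p = 0.00908, edgeR). With replicate number as a block, element 10 was 0.83 and not called (adjusted p = 0.087, edgeR). Element 10 had a region in this table only, and that region is named after a POSR1 peak. Across the table, 31.9% of regions named after a POSR1 peak were called higher and 3.86% lower, against 10.1% and 28.0% of those named after a POS peak, which include all 6 called lower here.

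Calls of the POSR comparison at elements 16, 27 and 35 depended on single libraries. The number called lower was 3 without POSR2 replicate 2 and 3 without any one of the POS libraries, and the number called higher was 2 without POSR1 replicate 1. Element 27 (chr12:89784009-89785010) had a log2 fold change of -1.01 ± 0.25 and lost its call without POS replicate 1 (-0.94), and elements 16 and 35 lost theirs without POSR2 replicate 2 (-0.88 and -0.75) or any 1 of the POS libraries. POSR1 alone gave 8 regions lower than POS and 1 higher, beside 28.6% and 25.0% of the table in that fit. POSR2 alone gave 10 lower and 3 higher, beside 28.5% and 27.2%. The POS libraries of this comparison are also the POS libraries of the acute and the POS against NEG comparisons.

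POSR2 differed from POSR1 at 8 of the 19 regions, 5 of them higher in POSR2 and 3 lower, where 21.2% and 19.3% of the table were. Element 11 (chr12:89606048-89607049) had 24.9 and 27.2 CPM in POSR2 libraries, against 13.6 and 12.5 CPM in POSR1 libraries (log2 fold change 0.99 ± 0.17, adjusted p = 2.7e-08, edgeR). The POS libraries, at 30.0, 24.0 and 22.3 CPM, lay near the POSR2 values. Element 16 went the other way, with 3.35 and 4.60 CPM in POSR2 libraries, against 7.59 and 7.88 CPM in POSR1 libraries (log2 fold change -0.97 ± 0.25, adjusted p = 4.5e-04, edgeR). Without each library in turn 1 to 3 regions were higher in POSR2, down to 1 without POSR2 replicate 2.

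**Figure D5:**
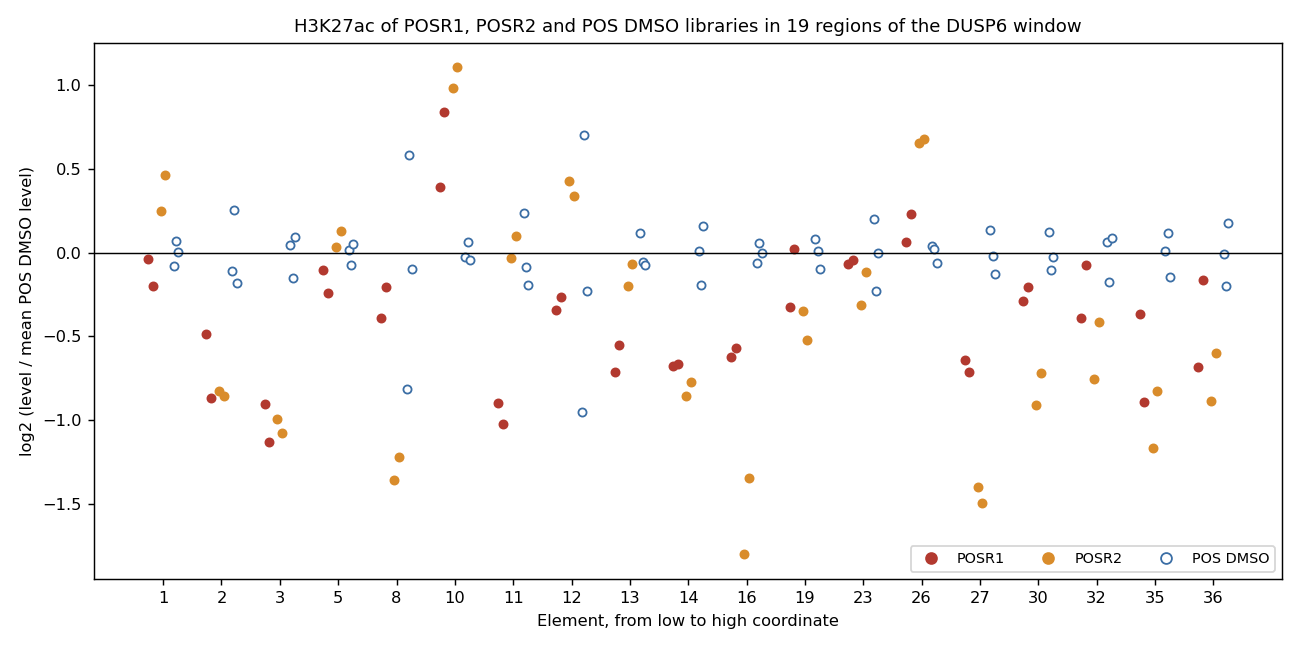
Log2 of each library's H3K27ac level over the mean POS DMSO level (y axis) for POSR1, POSR2 and POS DMSO libraries in the 19 regions of the POSR table, by element (x axis). Both POSR groups lie below the POS libraries at elements 3 and 14 and above them at element 10, and POSR1 and POSR2 part at element 11.

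Among the 6 elements found in all tables, element 13 had the highest mean level and element 32 the lowest 24-hour POS value, and their profiles of 6 log2 fold changes were compared with those of 9728 regions outside the window by Euclidean distance. The nearest to element 13 was chr9:91795119-91796120 (distance 0.69), with -2.56 at 24 hours and -1.15 at day 14 in POS cells and -1.47 and -0.96 in NEG cells. The nearest to element 32 was chr10:4173276-4174277 (distance 0.80), with -3.26 at 24 hours and -4.67 at day 14 in POS cells and -1.27 and -0.43 in NEG cells, followed by chr1:244326802-244327803 (1.02) and chr7:30954183-30955184 (1.02). A deep loss in POS cells beside a mild one in NEG cells was thus measured at other regions as well.

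In the authors' deposited tables, at the same adjusted p under 0.05, the numbers of calls differed for some comparisons. They were the same for POS cells at 24 hours and at day 14 and for POSR against POS. For POS cells at 24 hours the authors' deposited table had 18 of 18 regions lower, beside 20.1% of that table, and for NEG cells at 24 hours 13 of 22, beside 9.57%. Of those 22 NEG regions, 3 had no adjusted p there, and the 9.57% is over the 39673 regions that had one. At day 14 the authors' deposited tables had 14 of 15 regions lower in POS cells, beside 26.9%, and 6 of 13 in NEG cells, beside 7.75%, with 0 higher there, so that the rise of element 26 was not called. For POS against NEG the authors' deposited table had 6 of 23 regions higher in POS and 6 higher in NEG, beside 29.9% and 27.03%, and for POSR against POS 6 of 19 lower and 1 higher, beside 17.4% and 18.4%. For JUNB it had 6 of 47 sites higher in POS and 11 higher in NEG, beside 17.5% and 17.7%.

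The bounds of the window were set by position, and the values on either side of them are given as a description. In the table of POS cells at 24 hours the outermost regions inside were elements 1 (log2 fold change -2.70) and 36 (-1.68), and the nearest outside were chr12:89354176-89355177 (-0.93) and chr12:89998385-89999386 (0.37). In that of NEG cells at 24 hours, the outermost inside were elements 2 (-1.43) and 38 (-0.58), and the nearest outside were chr12:89469449-89470450 (-0.51) and chr12:89965037-89966038 (-0.46). At day 14 in POS cells, the outermost inside were elements 1 (-1.02) and 34 (-2.67), and the nearest outside were chr12:89354071-89355072 (-1.33) and chr12:90030222-90031223 (-1.87). At day 14 in NEG cells, they were elements 3 (-1.82) and 37 (-0.34) inside, and chr12:89460522-89461523 (-1.26) and chr12:89968450-89969451 (-0.40) outside. Log2 fold changes below 0 were thus measured on both sides beyond the bounds, except above the upper bound in POS cells at 24 hours.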

How the data were processed

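Chromatin immunoprecipitation and sequencing covered 36 samples: 22 H3K27ac libraries, 4 JUNB libraries and 10 inputs; the inputs were not used. The submitters' processing notes list DESeq2, MACS2, featureCounts, STAR 2.5.2b, cutadapt 1.12 and hg19, without the role or settings of each. The authors deposited raw counts per library for 7 region sets from MACS2; H3K27ac regions span 1001 bases and JUNB sites 201 (end minus start). Their deposited DESeq2 tables give, per the file headers, a mean count after size factor scaling (a signal), log2 fold changes, a test score and p-values. Whether positions count from 0 or 1 is not stated. No molecular identifiers are described, so a count is a read.

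Each table was fitted whole with edgeR 4.0.16 (limma 3.58.1, R 4.3.3): TMM, the default filter with a minimum count of 10, the quasi-likelihood test and Benjamini-Hochberg adjustment. DESeq2 1.42.0 was an alternative. TMM takes most regions as unchanged, so a shift of H3K27ac across the genome would not be seen. Separate cultures are not stated for the replicates, and p-values measure only how far these libraries spread, which may be technical. Replicates differed by more than sampling noise, at 1.10 to 4.80 times the chi-square of counting error, and none was taken for a duplicate. All count columns were mapped to samples. Those of the 24-hour trametinib libraries are labelled GSK and were mapped by their table's name and the sample descriptions.

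The members, lists and tests were chosen with earlier results of these data known. Named were elements found in all 6 tables, up to 4 regions called higher and 4 lower per comparison by absolute log2 fold change, regions against the majority direction, the 8 strongest JUNB sites, and the nearest profiles outside the window. Others, such as elements 21 and 24 in single tables, were chosen after their values were seen. Gene and marker lists were not applied, for want of an hg19 annotation. The fits were tested on simulated data. Sums over the window were not tested, and their alternatives were chosen after seeing the data. Tables and figures were made with pandas 2.3.3, numpy 2.4.6 and matplotlib 3.10.9 under Python 3.11.15.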

Additional observations from a re-analysis of the deposited data

Results flagged for a closer look

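The difference in response between NEG and POS cells passed the test of the difference (edgeR's quasi-likelihood interaction, adjusted over all matched regions) at 10 elements at 24 hours and 7 at day 14. At 24 hours the differences, NEG minus POS on the log2 scale, were 0.92 for element 3, 0.90 for element 5, 1.27 for element 11, 0.80 for element 14, 1.42 for element 21, 1.35 for element 24, 1.51 for element 26, 0.72 for element 30, 2.14 for element 32 and 1.13 for element 36. At day 14 they were 1.26 for element 5, -0.63 for element 13, 2.44 for element 23, 1.30 for element 26, 0.92 for element 27, 1.16 for element 29 and 3.58 for element 32.

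In 1 of 19 regions of the POSR table, element 2, the POSR1 library replicate 1 stood apart at 5.76 CPM from the other 3 POSR libraries at 4.42 to 4.55 CPM. Chance gives such a gap in about 1 in 20 groups.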

How the results depend on the processing

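The counts of regions called lower kept within 1.5 times of the reported value under every alternative run for POS cells at 24 hours (18 throughout) and at day 14, and for NEG cells at both times. DESeq2 called 0 regions higher in NEG cells at day 14, 3 higher in POSR2 than POSR1, and 0 below 0 in the day 14 difference, for which library totals also gave 0. POSR2 alone gave 3 regions higher and 10 lower than POS. Without each library in turn, 1 to 2 regions were higher and 3 to 9 lower in POSR than POS, 1 to 3 were higher in POSR2 than POSR1, and 0 to 1 were below 0 in the day 14 difference.

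Groups share replicate numbers, which the labels do not tie to a culture or day. The correlation of same-numbered libraries' deviations was -0.20 to 0.38 over all pairs. In POS at 24 hours it was 0.12, 0.38 and -0.01, and 2 of the 3 trametinib libraries correlated best with their own number, so not every pair deviated together and the numbers were not taken as pairs. With a replicate block, 0 regions were called higher and 1 lower in POSR against POS, with element 10 at 0.83 (adjusted p = 0.087, edgeR). The block moved no other count by over 1.5 times.

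Of 935 values of named regions under other settings, 879 kept their call and direction, 44 lost a call and 12 gained one, and none that was called changed direction. For the window's sums, library totals gave a log2 ratio of -1.13 in place of -1.19 for NEG cells at 24 hours, and -0.08 in place of 0.08 for POS against NEG. Depth limits weak sites most: JUNB sites and day 14 POS regions near 2 CPM rest on few reads.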
